A study of Brassica rapa with 8 samples.

Results

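In *Brassica rapa* seedlings, 72 of the 46250 genes listed were raised after treatment with IAA-Ala, while their joint mean after IPA-Ala and IBA-Ala stayed near the control. These genes were chosen by their measured levels. Levels are CPM, i.e., the count of a gene as parts of the total count on genes of its library, scaled to a total of 1000000. A gene was selected when it had at least 20 counts in both IAA-Ala libraries and when the lower IAA-Ala level was at least 1.5 times the highest level in the other 6 libraries. In addition, the mean of the 4 IPA-Ala and IBA-Ala libraries had to lie above 0.67 and below 1.5 times the control mean. This range bound the joint mean and not each conjugate. Both IBA-Ala libraries lay above both controls in 11 of the 72 genes (19.2% of the other genes that met the count and the range) and below them in 5 (20.3%). Both IPA-Ala libraries lay above both controls in 4 (13.2%) and below them in 4 (14.9%). The quotient of the lower IAA-Ala level and the highest other level is called the ratio here. Auxin-related genes shown elsewhere (42 identifiers) were to be left out, but 0 of them met all criteria, so that the number was the same with them. Since the selection used the levels of all treatments, the differences between IAA-Ala and the other treatments are a description of the 72 genes and not a test of them.

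The seedlings were of Chinese cabbage (*B. rapa* ssp. *pekinensis*, cv. Cantonner Witkrop), 1 day old at the start and incubated for 24 h at 22 °C in continuous light on agar plates. The plates held IAA-Ala, IPA-Ala or IBA-Ala at 10 µM or no hormone (control), with 2 biological replicates each, and no other difference between the groups is given. The titles of the samples give 3 h instead of 24 h, and the time in the growth description and the study's methods was used. RNA was taken from whole seedlings, so that in any difference a changed number of cells of a type and a changed amount of RNA per cell cannot be told apart.

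Auxin bound to an amino acid through an amide bond can be a storage or transport form of the hormone. Conjugates with aspartate and glutamate are also precursors of its breakdown. Amidohydrolases release the free auxin, and GH3 enzymes form such conjugates. In IAA-Ala the released auxin is indole-3-acetic acid, the main auxin of plants, whereas IPA-Ala and IBA-Ala carry indole-3-propionic and indole-3-butyric acid, whose side chains are longer. Indole-3-butyric acid is shortened to indole-3-acetic acid by β-oxidation in peroxisomes. Free auxin binds TIR1/AFB receptors, which leads to the breakdown of Aux/IAA repressors and to the transcription of early auxin genes such as *Aux/IAA*, *SAUR* and *GH3* members.

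The 8 libraries held between 16616214 and 19521990 counts on genes, so that 1 read corresponded to between 0.0512 and 0.0602 CPM. A count was listed in at least 1 library for 36020 genes. The files give identifiers only, and 0 of the 46250 identifiers matched the reference table of gene names. The 72 genes are therefore described by their identifiers, and no function is assigned to them. Markers of seedling tissues could not be looked up for the same reason. Reads that aligned at several places belong to no gene (between 2432970 and 2881490 per library). Levels are therefore uncertain for genes that have nearly identical copies, which are frequent in *B. rapa*.

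Without the 42 identifiers, 23124 genes had at least 20 counts in both IAA-Ala libraries, and 80 of them reached a ratio of 1.5, and 72 of these also met the range for IPA-Ala and IBA-Ala. In the 8 others, the mean after IPA-Ala and IBA-Ala was at least 1.5 times the control in 3 and at most 0.67 times the control in 5. The number fell steeply with the ratio. Among the genes that met the count and the range (18928), 2118 had a ratio of at least 1, 72 of at least 1.5, 4 of at least 2 and 1 of at least 3. Midway between 1 and 1.5 the number was 370, and midway between 1.5 and 2 it was 11. Most of the 72 genes thus lay close to the limit, with a median ratio of 1.62.

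The limit separated genes with nearly the same values. Just inside lay BraA04g012660.3C, with 6.89 and 10.2 CPM in the control replicates, 15.4 and 16 CPM after IAA-Ala, 8.43 and 8.97 CPM after IPA-Ala, and 7.07 and 7.06 CPM after IBA-Ala (ratio 1.51). BraA10g028310.3C (ratio 1.51) had 10.03 and 7.16 CPM in the control, 23.1 and 15.1 CPM after IAA-Ala, and between 7.10 and 9.49 CPM in the other 4 libraries. BraA06g023210.3C (ratio 1.503) had 30.9 and 20.5 CPM after IAA-Ala and 13.6 CPM in its highest other library, IPA-Ala replicate 1. Just outside lay BraA01g034380.3C, BraA04g000590.3C and BraA10g030100.3C, with ratios of 1.496, 1.493 and 1.491. BraA10g030100.3C had 29.7 and 29.9 CPM after IAA-Ala and at most 19.9 CPM elsewhere, which gives it a smaller spread between the IAA-Ala replicates than BraA06g023210.3C, which was kept.

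The rule was also applied to other patterns to set the number in proportion. For the lowered genes it was turned around. The minimum of 20 counts then held for the 6 libraries without IAA-Ala, and the ratio was their lowest level over the higher IAA-Ala level. With the roles exchanged, 14 genes were raised after IPA-Ala only, 48 after IBA-Ala only and 62 after both of these conjugates only, while 129 genes were lowered after IAA-Ala only. The balance of raised and lowered genes depended on the scaling of the libraries. With TMM factors 96 genes were raised and 99 lowered after IAA-Ala only, and with RLE factors 97 and 100. This scaling was tried for the lowered genes after the data were seen. A ratio of at least 2 was reached by 4 of the 72 genes raised after IAA-Ala only, by 12 of the 48 raised after IBA-Ala only and by 19 of the 129 lowered. The lists also differed in reads, since 57 of the 72, 18 of the 48 and 85 of the 129 genes had at least 20 counts in all 8 libraries. The ratios of the lists are therefore not compared further. These numbers are sizes of lists, for which no test was made. The groups with a single conjugate rest on a limit over 2 libraries against 6, and the group with both long-chain conjugates on 4 libraries against 4.

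**Figure D1:**
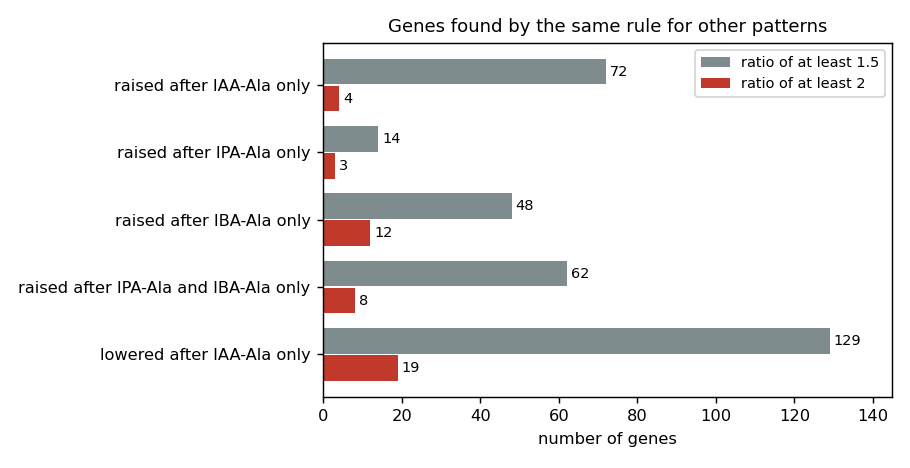
Number of genes (horizontal axis) that met the rule as adapted to each pattern, at a ratio of at least 1.5 (grey bars) and at least 2 (red bars). For the lowered genes the minimum count held for the 6 libraries without IAA-Ala. The pattern raised after IAA-Ala only holds 72 and 4 genes, and the pattern lowered after IAA-Ala only holds the most, with 129 and 19.

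The mean level of the 72 genes after IAA-Ala ranged from 1.14 to 438 CPM with a median of 14.0 CPM. Their median was 5.72 CPM in the control, 7.05 CPM after IPA-Ala and 6.42 CPM after IBA-Ala. The mean after IAA-Ala was between 1.71 and 5.60 times the control mean (median 2.51), and between 1.79 and 5.03 times the mean of the other 6 libraries (median 2.47). The rise was therefore mostly between 2- and 3-fold, as the quartiles of the fold over the control were 2.16 and 3.04. CPM is not divided by the length of the gene, so that the order of the genes by CPM is one of read numbers.

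Summed over the 72 genes, the level was 955 and 1437 CPM in the control replicates, 3003 and 2422 CPM after IAA-Ala, 1107 and 1249 CPM after IPA-Ala, and 1129 and 1240 CPM after IBA-Ala. The IAA-Ala libraries were set apart by the rule, but the unequal control replicates were not. Both IPA-Ala and both IBA-Ala libraries lay between the control replicates. The sum was carried by a few genes, with 16.2% of it after IAA-Ala in 1 gene and 47.6% in 6 genes. Only 7 of the 72 genes exceeded 100 CPM after IAA-Ala, while 30 were under 10 CPM and 7 under 2 CPM. None of the 72 genes was at 0 in any library.

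**Figure D2:**
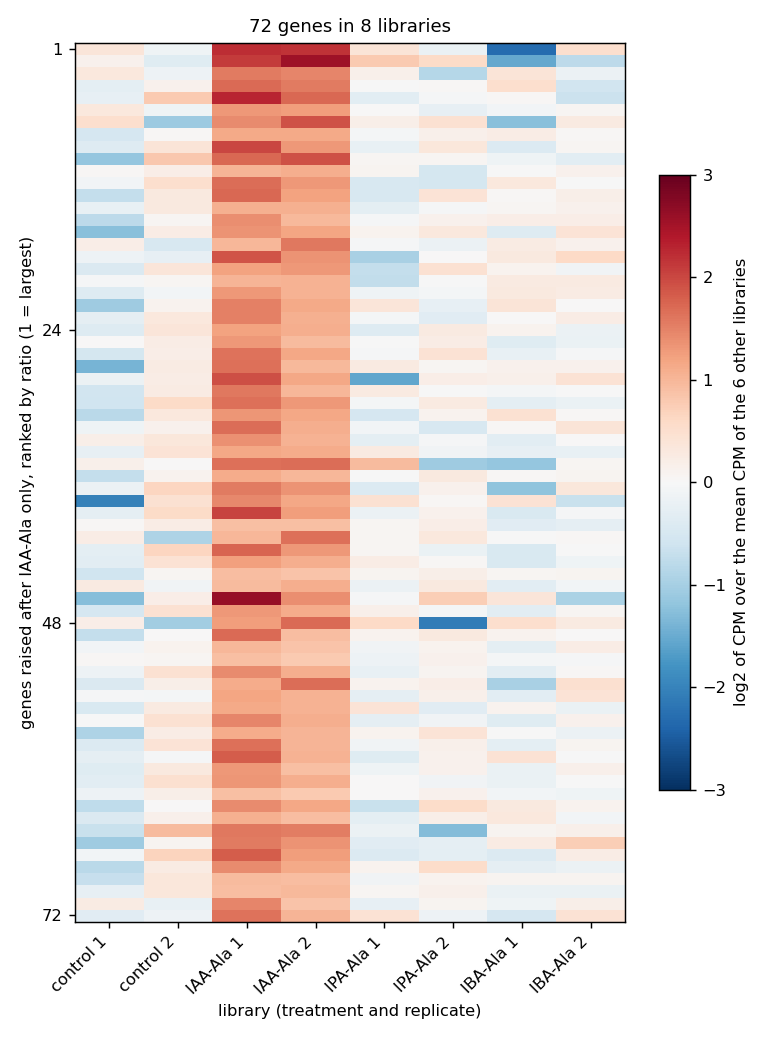
Level of each of the 72 genes (one line each, ordered from the largest ratio at the top to the smallest) in the 8 libraries, as log2 of the CPM over the mean CPM of the 6 libraries without IAA-Ala. Red is above and blue below that mean; both IAA-Ala columns are red by the choice of the genes, and the control replicate 1 column is bluer than that of control replicate 2.

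The largest ratio was that of BraA03g004730.3C (3.174), a gene with few reads. It had 24 and 23 counts after IAA-Ala and between 1 and 7 counts elsewhere. Its level was 0.342 and 0.241 CPM in the control, 1.23 and 1.20 CPM after IAA-Ala, 0.346 and 0.232 CPM after IPA-Ala, and 0.0536 and 0.377 CPM after IBA-Ala. The IAA-Ala replicates were nearly equal and 4.17 times the control mean, and the lowest value, 1 read, was in IBA-Ala replicate 1.

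BraA09g064940.3C (ratio 2.47) was at 0.513 and 0.361 CPM in the control and at 2.0 and 2.71 CPM after IAA-Ala. It was at 0.808 and 0.695 CPM after IPA-Ala but at 0.161 and 0.270 CPM after IBA-Ala, where it was lowest. The IPA-Ala libraries lay above and the IBA-Ala libraries below both control libraries, without overlap. On the log2 scale, the edgeR difference between IAA-Ala and control was 2.46 ± 0.64 (SE, n = 2 per group).

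BraA06g044610.3C (ratio 2.11) had 2.15 and 2.03 CPM after IAA-Ala, with 0.912 and 0.662 CPM in the control, 0.808 and 0.405 CPM after IPA-Ala, and 0.964 and 0.647 CPM after IBA-Ala. The 6 other libraries overlapped between the groups. BraA06g028090.3C (ratio 2.07) had 6.86 and 6.2 CPM after IAA-Ala, 1.71 and 2.29 CPM in the control, 2.08 and 2.14 CPM after IPA-Ala, and 3.00 and 1.40 CPM after IBA-Ala. The highest and the lowest of its other values were the 2 IBA-Ala libraries. These 4 genes were the only ones of the 72 with a ratio of at least 2.

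Of the next 4 genes by ratio, BraA08g019480.3C (ratio 1.94) had by far the most reads. Its level was 59.9 and 40.9 CPM after IAA-Ala, 10.4 and 21.1 CPM in the control, 9.93 and 12 CPM after IPA-Ala, and 12.7 and 7.87 CPM after IBA-Ala. Control replicate 2 was 21.1 CPM and thus higher than every IPA-Ala and IBA-Ala library, and the mean after the long-chain conjugates was 0.676 times the control mean, next to the lower limit of the rule. BraA09g019410.3C (ratio 1.93) was at 4.05 and 3.96 CPM after IAA-Ala and between 1.39 and 2.05 CPM elsewhere. BraA09g019130.3C (ratio 1.89) was at 2.05 and 2.87 CPM after IAA-Ala and between 0.321 and 1.08 CPM elsewhere, with the controls at 1.08 and 0.361 CPM. BraA04g028970.3C (ratio 1.88) was at 12.9 and 12.8 CPM after IAA-Ala and between 4.10 and 6.80 CPM elsewhere, so that its IAA-Ala replicates were among the most alike of the set.

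The 6 genes with the most reads after IAA-Ala had smaller ratios, between 1.51 and 1.70. The highest, BraA04g019210.3C, was steady in all libraries without IAA-Ala, with 251 and 255 CPM in the control, 219 and 269 CPM after IPA-Ala, and 234 and 238 CPM after IBA-Ala. After IAA-Ala it reached 456 and 420 CPM, i.e., 1.73 times the control mean. BraA08g028240.3C was also nearly equal in the IAA-Ala replicates (227 and 224 CPM) and in the IBA-Ala replicates (both 124 CPM), but not in the controls, with 72.8 and 148 CPM. After IPA-Ala it was at 108 and 125 CPM. Control replicate 2 of this gene was thus nearer to the IBA-Ala libraries than to control replicate 1.

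The difference between the controls recurred in the other 4 of these genes. BraA06g003110.3C had 47.9 and 87.2 CPM in the control, 219 and 164 CPM after IAA-Ala, 81.0 and 90.8 CPM after IPA-Ala, and 96.0 and 96.3 CPM after IBA-Ala. BraA02g008090.3C had 59.4 and 99.4 CPM in the control, 221 and 150 CPM after IAA-Ala, 47.3 and 50.9 CPM after IPA-Ala, and 47.4 and 73.0 CPM after IBA-Ala. In the former the long-chain conjugates lay around control replicate 2, and in the latter mostly below both controls. BraA04g001170.3C had 46.7 and 73.2 CPM in the control against 148 and 112 CPM after IAA-Ala, with the other 4 libraries between 51.9 and 66.2 CPM. BraA06g004930.3C had 31.0 and 55.8 CPM in the control against 152 and 90.1 CPM after IAA-Ala, with the other 4 libraries between 27.4 and 41.3 CPM. In 4 of the 6 genes the IAA-Ala replicate 1 was clearly the higher one, and in all 6 control replicate 2 was above control replicate 1.

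**Figure D3:**
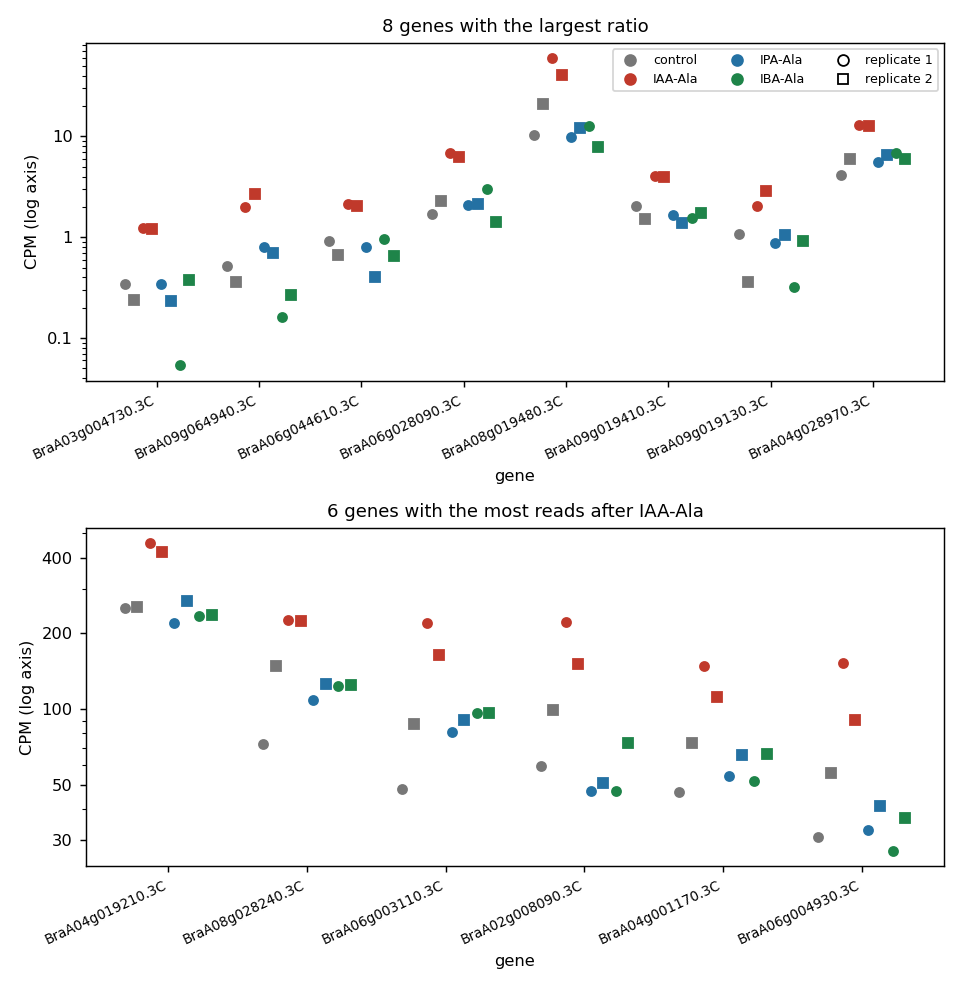
CPM (log axis) of the 8 genes with the largest ratio (upper panel) and the 6 with the most reads after IAA-Ala (lower panel) in each library; circles are replicate 1 and squares replicate 2, coloured by treatment. Both IAA-Ala points lie above all others by the choice of the genes; in the lower panel the control square lies above the control circle for every gene.

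The rule did not use the order of the replicates within a group, and this order was uneven in the 72 genes. Control replicate 2 was above control replicate 1 in 59 of the 72 genes, compared with 41.9% of the 18856 other genes that met the count and the range. IAA-Ala replicate 1 was above IAA-Ala replicate 2 in 59 as well, compared with 45.3% of the others, and both orders held together in 53 genes, compared with 20.7%. In the long-chain treatments, replicate 2 was higher in 49 genes after IPA-Ala (55.6% of the others) and in 48 genes after IBA-Ala (47.3% of the others). The ratio takes the higher control and the lower IAA-Ala replicate of each gene, whichever they are, and so fixes neither order. These shares are a description and were not tested.

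The sizes were unequal too. The median of control replicate 1 over control replicate 2 was 0.645 in the 72 genes and 1.08 in the other genes, and that of IAA-Ala replicate 1 over IAA-Ala replicate 2 was 1.13 and 0.973, respectively. In 38 of the 72 genes control replicate 2 was at least 1.5 times control replicate 1, and in 4 the reverse was the case. In 37 genes the 95% Poisson intervals of the control replicates, which cover counting error only, were apart with control replicate 2 above, and in 1 gene with control replicate 1 above. For IAA-Ala, the intervals were apart in 26 genes with replicate 1 above and in 2 with replicate 2 above. The IAA-Ala replicates were within 1.1 times of each other in 23 genes and at least 1.5 times apart in 14. Across the 72 genes, log2 of control 2 over control 1 and log2 of IAA-Ala 1 over IAA-Ala 2 had a Pearson r of 0.443 and a Spearman rho of 0.358, and across 18855 other genes an r of 0.0860. This is a correlation across genes that share 4 libraries, and genes are not independent replicates.

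**Figure D4:**
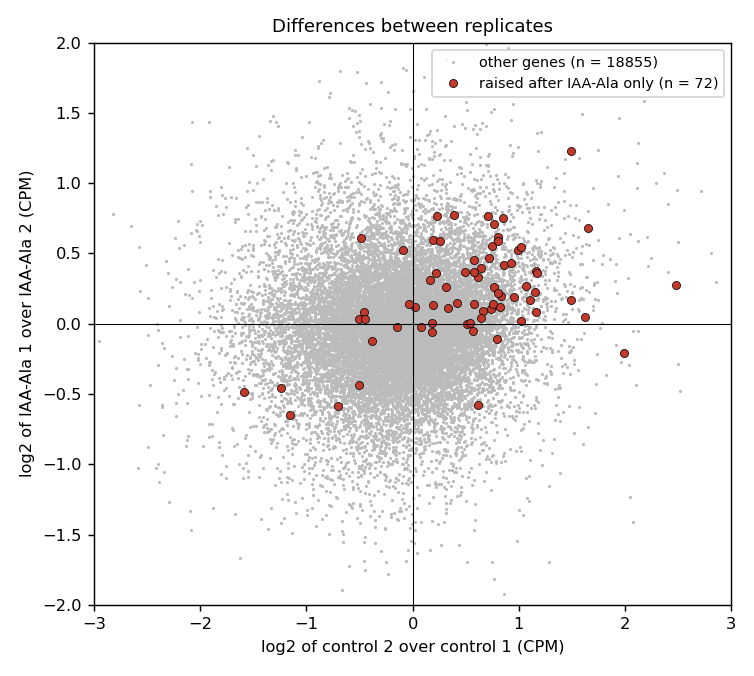
Each gene's difference between the control replicates (horizontal axis, log2 of control 2 over control 1) and between the IAA-Ala replicates (vertical axis, log2 of IAA-Ala 1 over IAA-Ala 2). Of the 72 genes (red), 53 lie at the upper right, above 0 on both axes; grey points are 18855 other genes that met the count and the range, of which 23 lie outside the plot.

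Because of this difference, the size of the rise depended on the control library. The median of the 72 quotients was 3.34 for IAA-Ala replicate 1 over control replicate 1 and 2.20 over control replicate 2. For IAA-Ala replicate 2 it was 2.82 over control replicate 1 and 1.85 over control replicate 2. Over the IPA-Ala and IBA-Ala libraries the medians lay between 2.09 and 2.85. The library that set the ratio was most often control replicate 2, the highest of the other 6 libraries in 28 of the 72 genes (21.2% of the other genes). Control replicate 1 was the highest in 3 genes and the lowest in 31 (14.5% of the other genes). The share of reads on no gene, among those on genes, ambiguous or on no gene, also differed between the libraries. It was 19.3% in control replicate 1 and 16.7% in control replicate 2, compared with 16.3% and 15.9% in the IAA-Ala replicates. The IPA-Ala replicates had 16.9% and 17.4%, those of IBA-Ala 18.4% and 17.4%. It was thus highest in control replicate 1, where the summed level was lowest, and lowest in the IAA-Ala libraries, where that level was highest. Within the control and the IBA-Ala group, the replicate with the higher share had the lower summed level. Within the IAA-Ala and the IPA-Ala group, it had the higher one. The part of this share in the result was not tested. Without control replicate 1 the rule kept 69 genes (59 of the 72 among them) and the median log2 difference of the 72 genes between IAA-Ala and control, 1.37 with all libraries, was 0.99. Without control replicate 2 it kept 379 genes (52 of the 72 among them) and the median was 1.75. Without IAA-Ala replicate 1 the rule kept 147 genes and without IAA-Ala replicate 2 it kept 638, all 72 among them in both cases. In 55 of the 72 genes the Poisson intervals of the lower IAA-Ala level and the highest other level were apart.

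The control order differed in the patterns that the rule finds with other groups. Control replicate 2 was above replicate 1 in 20 of the 129 genes lowered after IAA-Ala only, in 5 of the 62 genes raised after both long-chain conjugates only and in 12 of the 48 genes raised after IBA-Ala only. In the 14 genes raised after IPA-Ala only it was above in 6, a share near that of the other genes. These orders are a description without a test.

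In a fit of the 2 IAA-Ala and the 2 control libraries, the quasi-likelihood test of edgeR, adjusted by Benjamini-Hochberg over 26769 genes, gave a median log2 difference of 1.37 over the 72 genes, compared with -0.02 over all genes. The single differences ranged from 0.82 to 2.53. None of the 72 genes had an adjusted p below 0.01 (0.0486% of all genes had one) and none below 0.05 (0.669%), although 69 had an unadjusted p below 0.05 (13.6%). DESeq2 called 10 of the 72 genes at 0.01 (1.4% of all genes) and 27 at 0.05 (675 of all 26769 genes). At 0.05, edgeR called 2 of the 72 in one fit of all 8 libraries (174 of all 27948 genes). With the replicate number as a block it called 6 at 0.05 (303 of all 26769 genes). Without control replicate 2, 39 of the 72 genes were called at 0.05 (4.6% of all genes), and without IAA-Ala replicate 2 this number was 3 (1.18%). By the same count, none of the 156 genes that edgeR called as raised at 0.05 in the fit named first was among the 72. The 72 are few among the 26769 genes tested, so that this does not set the 2 lists apart. These counts stand beside a selection on the same values and are a description.

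The differences to the long-chain conjugates were of similar size, with median log2 differences of 1.35 against IPA-Ala and 1.39 against IBA-Ala. For IAA-Ala against IPA-Ala, edgeR called 0 of the 72 genes at 0.01 (0% of all genes) and 33 at 0.05 (2.34%), while 70 had an unadjusted p below 0.05 (22.7%) and DESeq2 called 35 at 0.01 (3.35%). For IAA-Ala against IBA-Ala, edgeR called 0 at 0.01 (0%) and 47 at 0.05 (6.86%), while 69 had an unadjusted p below 0.05 (27.2%) and DESeq2 called 43 at 0.01 (6.66%). With 1 library left out, the calls at 0.05 against IPA-Ala were 8 of the 72 genes without IAA-Ala replicate 1 (0.463% of all genes) and 35 without IAA-Ala replicate 2 (3.58%). Without either IPA-Ala replicate no gene at all was called. Those against IBA-Ala were 19 without IAA-Ala replicate 2 (1.04%) and 24 without IBA-Ala replicate 2 (4.14%), and no gene at all was called without IAA-Ala replicate 1 or without IBA-Ala replicate 1. The 3 comparisons share the IAA-Ala libraries and were all used by the rule, so that the counts carry no separate information on the 72 genes.

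The difference between the 2 long-chain conjugates was the comparison that the rule bound least, since it used only their joint mean and their highest value. Of the 72 genes, 69 passed edgeR's filter on low counts in this fit. None was called at 0.01 or at 0.05 (0% of all genes in both cases), 2 had an unadjusted p below 0.05 (7.97% of all genes), and DESeq2 called 0 at 0.01 (0.33% of all genes). The median log2 difference of IBA-Ala against IPA-Ala was -0.06, compared with 0.00 over all genes, with 30 genes higher and 39 lower after IBA-Ala. Both IBA-Ala libraries lay above both IPA-Ala libraries in 11 of the 72 genes (21.9% of all genes that met the count and the range) and below them in 15 (17.3%). A lack of calls does not show that the conjugates acted alike. The 95% interval of the difference lay within 1 on the log2 scale in 40 of the 69 genes and reached beyond a 2-fold difference in 29.

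The smallest p was that of BraA02g043500.3C, which was higher after IBA-Ala (10.5 and 14.8 CPM) than after IPA-Ala (6.98 and 7.35 CPM). Its log2 difference was 0.80 ± 0.26 (SE), with a 95% interval from 0.18 to 1.41 and an adjusted p of 0.525 by edgeR. With 4.22 and 9.39 CPM in the control and 26.2 and 22.5 CPM after IAA-Ala, its long-chain mean was 1.46 times the control mean, next to the upper limit of the rule. The p of BraA09g064940.3C, described above, came next, with a log2 difference of -1.80 ± 0.77 and an interval from -3.62 to -0.05 (edgeR adjusted p = 0.614). This gene was the lowest of the 69 in this comparison, and its 4 long-chain libraries held between 3 and 14 counts.

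In BraA01g018300.3C the IBA-Ala libraries (11.1 and 11.8 CPM) were the lowest of all, below IPA-Ala (14.7 and 16.2 CPM), the control (14.5 and 16.5 CPM) and IAA-Ala (26.5 and 26.4 CPM). The log2 difference of IBA-Ala against IPA-Ala was -0.45 ± 0.21 (edgeR adjusted p = 0.633). BraA07g034520.3C was at 4.82 and 5.18 CPM after IBA-Ala and 6.23 and 8.51 CPM after IPA-Ala, with 3.3 and 6.92 CPM in the control and 15.5 and 12.9 CPM after IAA-Ala. Its log2 difference was -0.58 ± 0.28 (edgeR adjusted p = 0.648). Both IBA-Ala values lay between the controls, whereas the higher IPA-Ala value lay above them.

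**Figure D5:**
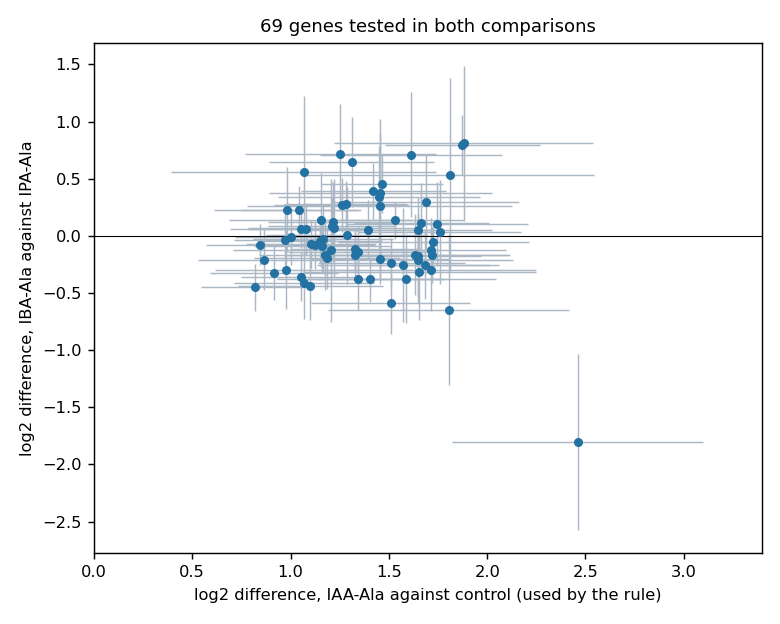
Log2 difference of IBA-Ala against IPA-Ala (vertical axis) and of IAA-Ala against control (horizontal axis) for the 69 genes tested in both, with the SE of each (lines). The horizontal values are above 0 by the choice of the genes; the vertical values scatter around 0, between -1.80 and 0.81.

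The 72 identifiers lay on all 10 chromosomes (A01 to A10, as the identifiers give them), with between 2 genes on A05 and 11 on A09. As a share of the genes on each chromosome that met the count and the range, this was between 0.112% on A05 and 0.561% on A04. The identifiers are numbered along the chromosome, and only 1 pair of the 72 genes followed each other directly, BraA07g013380.3C and BraA07g013390.3C. BraA07g013380.3C was at 3.02 and 6.74 CPM in the control, 12.4 and 11.7 CPM after IAA-Ala, 6.23 and 7.64 CPM after IPA-Ala, and 5.73 and 5.12 CPM after IBA-Ala. BraA07g013390.3C was at 5.24 and 6.62 CPM in the control, 10.9 and 10.1 CPM after IAA-Ala, 5.89 and 6.43 CPM after IPA-Ala, and 5.52 and 5.34 CPM after IBA-Ala. The former was 2.48 times and the latter 1.76 times the control mean after IAA-Ala, and their levels differed most in control replicate 1. Of 82 other direct neighbours with at least 20 counts in both IAA-Ala libraries, 8 (9.76%) had both IAA-Ala libraries above all others, compared with 9.64% of all 23079 such genes, here with the 42 identifiers and without the 72 genes.

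Among the neighbours was a known auxin gene, which was picked after its values were seen. BraA03g057210.3C, with 2.28 and 1.02 CPM in the control, 3.89 and 6.10 CPM after IAA-Ala and between 1.93 and 2.43 CPM in the other 4 libraries, stood next to *IAA29*, which encodes an Aux/IAA repressor. *IAA29* itself was at 0.684 and 0.602 CPM in the control, 22.9 and 12.5 CPM after IAA-Ala, 4.16 and 8.05 CPM after IPA-Ala, and 10.6 and 21.6 CPM after IBA-Ala. It was thus higher in all 6 treated libraries than in both controls, whereas BraA03g057210.3C had its long-chain libraries at or near the level of control replicate 1.

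The auxin genes named in the study did not share the pattern of the 72 genes. Of 12 such genes, only *YDK1* (BraA01g001510.3C), a *GH3* gene whose product conjugates auxin to amino acids, had a ratio of at least 1.5. It was at 0.513 and 1.02 CPM in the control and at 128 and 101 CPM after IAA-Ala, but also at 4.56 and 30.0 CPM after IPA-Ala and at 27.3 and 50.1 CPM after IBA-Ala. Its mean after the long-chain conjugates was 36.4 times the control mean, far beyond the limit of 1.5 within which the 72 genes were held. *GH3.3* was at 11.7 and 6.14 CPM in the control, 165 and 254 CPM after IAA-Ala, 22.1 and 85.8 CPM after IPA-Ala and 107 and 181 CPM after IBA-Ala, so that IAA-Ala overlapped with IBA-Ala but not with IPA-Ala. The mean after IAA-Ala over the control mean was above the range of the 72 genes (1.71 to 5.60) in 4 of the 12 auxin genes, within it in 5 and below it in 3. Among the 5 was the *SAUR*-like gene BraA01g003520.3C, which had few reads, with 0.359 and 0.156 CPM after IAA-Ala and 0.285 and 0 CPM in the control. Among the 3 was *C-S-lyase*, which was lowered to 0.336 times the control mean.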

How the data were processed

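The deposited values are raw counts per gene, which the authors made from reads of about 50 bp by clipping the first 9 bases, aligning to the Chiifu genome with STAR 2.7.1a and counting by strand with HTSeq 1.99.2. Tables named as normalized counts were not used, nor were the study's own fold changes. The depth was 16616214 to 19521990 counts on genes, and the share of reads on no gene is given with the results. CPM was computed from the counts on genes with Python 3.11.15 and pandas 2.3.3.

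Comparisons of 4 libraries used edgeR 4.0.16 in R 4.3.3 (filterByExpr, TMM, quasi-likelihood test in its edgeR 4 form, Benjamini-Hochberg over all genes tested). DESeq2 1.42.0 was an alternative. The SE is the absolute log2 difference over the square root of F. Intervals of counts are 95% Poisson intervals. With 2 replicates, outliers were not tested.

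The members and lists were chosen with earlier results of these data known. Named are the 8 genes with the largest ratio, the 6 with the most reads after IAA-Ala, 3 on each side of the ratio limit, the 4 with the smallest p for IBA-Ala against IPA-Ala, and genes that follow each other. BraA03g057210.3C, BraA10g020430.3C, *IAA29* and *GH3.3* were added after their values were seen. Sequences were not analysed here.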

Additional observations from a re-analysis of the deposited data

Results flagged for a closer look

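1 of the 72 genes, BraA10g020430.3C, moved in opposite ways after the conjugates, named after its values were seen. It had 12 and 13.5 CPM in the control, 27.4 and 22.0 CPM after IAA-Ala, 8.77 and 10.4 CPM after IPA-Ala, and 8.62 and 10.7 CPM after IBA-Ala. Both IAA-Ala libraries were above and all 4 long-chain libraries below both controls. This difference was not tested, and the direction after IAA-Ala was set by the choice of the gene. All 4 long-chain libraries were below both controls in 7.84% of the other genes that met the count and the range.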

How the results depend on the processing

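The number of genes depended on the limits and on single libraries. It was 4 at a ratio of 2, 370 at the middle between 1 and 1.5, and 47 with a range of 0.8 to its inverse. With TMM or RLE factors it was 96 or 97 (68 and 67 shared with the 72), and with a minimum count of 10 or 40 it was 84 or 63. Counts thinned to the smallest library gave 72 (62 shared), and no range 80. With 1 replicate left out it ranged from 69 to 638, with 379 without control replicate 2 (52 shared), 147 without IAA-Ala replicate 1 and 638 without IAA-Ala replicate 2. The median log2 difference of IAA-Ala against control was 0.99 without control replicate 1 and 1.75 without control replicate 2. DESeq2 called 10, 35 and 43 of the genes at 0.01 against control, IPA-Ala and IBA-Ala, where edgeR called 0, and at 0.05 edgeR called 33 against IPA-Ala and 47 against IBA-Ala. In one fit of all 8 libraries no gene at all was called at 0.05 against IPA-Ala or against IBA-Ala. Against control, 2 of the 72 genes were called in that fit (174 of all 27948 genes). Against IPA-Ala, the median log2 difference of the 72 genes by edgeR ranged from 1.228 without IAA-Ala replicate 1 to 1.495 without IAA-Ala replicate 2.

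With the replicate number as a block, edgeR called 46 of the 72 genes against IBA-Ala at 0.01, in a fit that called 2201 of all genes (8.17%). The labels do not say whether the numbers pair the samples. Between groups, the correlation of the differences between replicates was between -0.16 and 0.16 over 27948 genes, and 0.13 for IAA-Ala and IBA-Ala. Such a correlation cannot decide whether the samples were paired. The named genes' differences to the control ranged from 0.58 to 2.71 over the alternatives, with their sign fixed by the choice of the genes. The edgeR 3 form of the test was added after the data were seen. It left the calls at 0.01 at 0 in all 4 comparisons. The depth leaves genes with few reads with wide intervals.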
